A study of Drosophila melanogaster with 16 samples.

Results

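The transcripts described here encode the structural proteins of muscle: myosin, paramyosin and their partners in the thick filament, sarcomeric actins, tropomyosins and troponins of the thin filament, and proteins of the Z disc, the M line and the muscle cell's attachment to its nuclei. The members were chosen by gene symbol, from a list of 31, and 29 of them had a probe set of their own among the 11283 genes that probe-set names led to. No probe set was found by name for Mlc1, the alkali myosin light chain. The only probe set for sls (KET_at), which encodes fly titin-like proteins, carries a name shared with Fs(2)Ket, so it is not counted as a member. The 29 genes were covered by 50 probe sets, 16 genes by 1 and 13 by several. Each gene is represented by its brightest probe set, and 28 of these could be tested.

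Muscle contracts in repeated units called sarcomeres. Thick filaments of myosin slide along thin filaments of actin, which are anchored and crosslinked at Z discs, and tropomyosin with the troponin complex blocks or frees the myosin sites on actin as calcium falls and rises. In the fly embryo, body-wall muscle fibres form by fusion of mesodermal myoblasts and switch on this set of structural genes together in the later stages, when many of the transcripts become abundant.

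RNA of whole Drosophila melanogaster embryos was measured on 16 single-colour arrays in 4 groups. The hsotd group (n = 4) was the hsp-otd line 5A, which carries the fly head gene otd, current symbol oc, under a heat shock promoter. The hsOTX2 group (n = 4) was the hsp-Otx2 line, which carries human Otx2 in the same way. The hswt group (n = 3) was heat-shocked Oregon-R wild type, and the wt group (n = 5) was Oregon-R with no heat shock in its labels. Embryos of the 3 heat-shocked groups were gathered over 12 h, aged 4 h at 25 °C, held at 37 °C for 25 min and left to recover for 25 min. All 4 groups were at stages 10 to 17. The heat shock promoter is known to act throughout the embryo, so neither transgene was driven in muscle alone. Each transgene is represented by 1 line, and no labels describe the wt group's collection or ageing, so heat shock and collection cannot be told apart in hswt over wt. For the same reason the labels do not show whether the mix of ages within stages 10 to 17 was alike in the 4 groups.

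Of the 14038 probe sets that were not controls, 12301 were tested. All values below are normalized intensities with a floor of 20, and a level of 20.0 means at or below it. Fold changes are log2 ratios with their standard error (SE), and a transcript is said to have changed where limma's adjusted p was below 0.05. Nothing in the labels states that the replicates of a group came from separate embryo collections, so a p-value here reflects array-to-array spread, which may be technical. Mean deposited intensity per array ran from 785.9 to 997.8 in hsotd, from 609.3 to 1016.4 in hsOTX2, from 460.2 to 650.2 in hswt and from 598.7 to 999.1 in wt. The hsotd arrays carried the otd transcript (probe set OC_at) at 6213 to 6448, against 96.6 to 127.3 in hsOTX2 arrays. It was at most 234.9 in hswt arrays and at most 21.2 in wt arrays. The human Otx2 transcript was not checked in any array. The probe set of the heat shock gene Hsp68 read 14921 to 16741 in hsotd, 17086 to 18086 in hsOTX2 and 16386 to 17299 in hswt, and was at the floor in all 5 wt arrays.

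Sarcomere transcripts were abundant in all groups. The median level of the 28 tested members was 2431, against 245 for all tested probe sets. Their summed level was 101952 to 104124 in hsotd arrays, 122402 to 128025 in hsOTX2 arrays, 121884 to 128924 in hswt arrays and 127524 to 135203 in wt arrays. The hsotd range lay below the ranges of the other 3 groups. Of these sums, the 4 actins gave 43830 to 48189 in hsotd and 45075 to 53812 in hsOTX2. They gave 49464 to 52255 in hswt and 45296 to 52366 in wt. In a whole-embryo extract, fewer muscle cells and less RNA per muscle cell cannot be told apart.

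In hsotd over hswt, 13 of the 28 members (46.4%) fell and 1 rose, where 13.6% of all tested probe sets were lower and 15.8% higher. The member list was drawn up with earlier results of these data known. The shares set beside it here and below are therefore descriptive and no test of the list. The median log2 fold change was -0.41 over the members and -0.00 over all tested probe sets. These directions are relative to the bulk of the probe sets: without normalization those medians were 0.25 and 0.68. In hsotd over hsOTX2, 12 members (42.9%) were lower and none higher, where 13.8% of all probe sets were lower and 15.7% higher, and the medians were -0.32 for the members and 0.02 for all. At an unadjusted p below 0.05, limma gave 13 members lower and 0 higher in that comparison. In hsOTX2 over hswt, 4 members (14.3%) were lower and 1 (3.57%) higher, against 19.7% and 17.5% of all probe sets, with medians of -0.04 for the members and -0.13 for all. Without hswt replicate 1, 6 members were higher in that comparison: Mf, and with it Tm1, Tm2, wupA, Mlp84B and Mp20. In hswt over wt, 4 members (14.3%) were lower and 3 (10.7%) higher, against 12.2% and 10.3% of all probe sets, with medians of -0.04 and 0.01. The 4 lower members became 2 without wt replicate 5, hswt replicate 2 or hswt replicate 3. The comparisons of the lines with hswt use the same 3 hswt arrays, so their values are given side by side and no overlap between them is counted.

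Members are brighter than most genes, and bright probe sets are called more often. Among the 2271 probe sets with a mean level of at least 1000, 21.8% were lower in hsotd over hswt, and 10 of 17 members at that level were. In hsotd over hsOTX2 it was 22.4% of these probe sets and again 10 of 17 members. In hsOTX2 over hswt the order was the other way round, at 35.9% of the bright probe sets and 3 of 17 members.

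**Figure D1:**
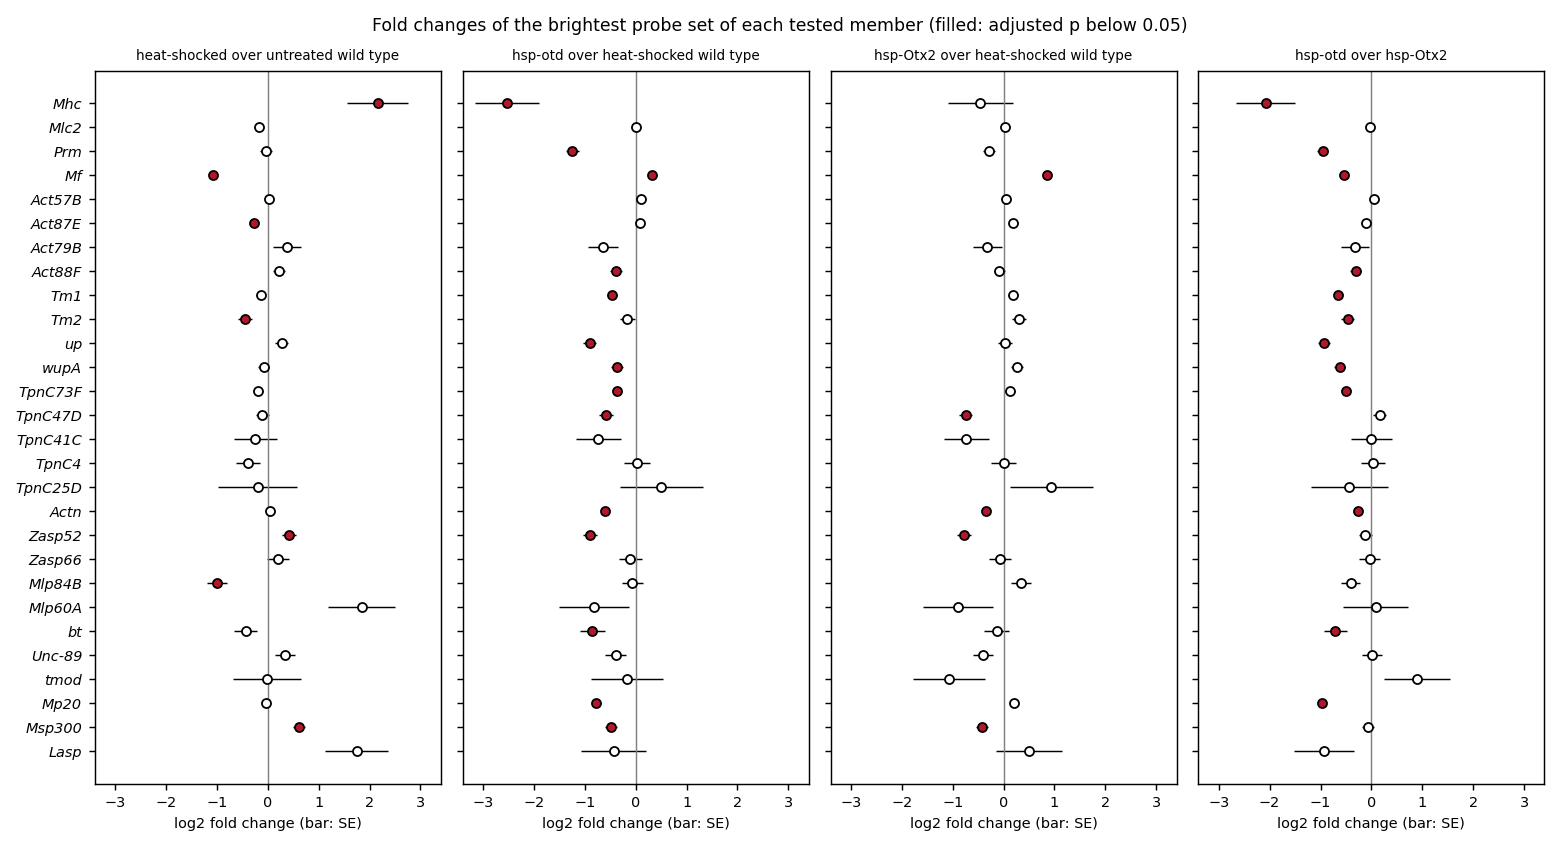
Log2 fold change (horizontal axis, bars show the SE) of the brightest probe set of each of the 28 tested members, in 4 comparisons from left to right: hswt over wt, hsotd over hswt, hsOTX2 over hswt and hsotd over hsOTX2. Filled points passed at an adjusted p below 0.05. In hsotd over hswt 13 filled points lie left of 0 and 1 lies right of it, and in hsotd over hsOTX2 all 12 filled points lie left of 0; values are quantile normalized, and without normalization the members' median in hsotd over hswt is 0.25, where that of all probe sets is 0.68.

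In the thick filament, Prm had the lowest adjusted p of all members in hsotd over hswt. Prm encodes paramyosin, which forms the core of the thick filament in invertebrate muscle. It read 1654, 1529, 1399 and 1797 in hsotd, and 3253, 2855, 2940 and 3336 in hsOTX2. The control levels were 4483, 3563 and 3358 in hswt and 4807, 3951, 3658, 3339 and 3810 in wt. Every hsotd array lay below every other array, and all hsOTX2 arrays lay just below the lowest hswt array. The log2 fold change was -1.25 in hsotd over hswt (SE 0.12, adjusted p = 2.72e-06), -0.96 in hsotd over hsOTX2 (SE 0.11, adjusted p = 6.61e-06) and -0.29 in hsOTX2 over hswt (SE 0.12, adjusted p = 0.0805). Another Prm probe set (PRM_at) gave -1.17 and -0.95 for the hsotd comparisons.

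Mhc encodes the muscle myosin heavy chain, the motor of the thick filament. Its only probe set was dim, unlike those of most members. It read 20.0, 20.0, 78.2 and 53.3 in hsotd, and 170, 136, 137 and 170 in hsOTX2. The controls read 213, 204 and 207 in hswt, and 20.0, 117, 69.2, 67.6 and 20.0 in wt. The hsotd arrays lay below all hsOTX2 and hswt arrays and overlapped with wt, and the hswt arrays were the highest. The fold change was -2.53 in hsotd over hswt (SE 0.63, adjusted p = 0.00726) and -2.08 in hsotd over hsOTX2 (SE 0.59, adjusted p = 0.0122). It was 2.16 in hswt over wt (SE 0.61, adjusted p = 0.0168) and -0.45 in hsOTX2 over hswt (SE 0.63, adjusted p = 0.614). Because 2 of 4 hsotd arrays and 2 of 5 wt arrays lay at the floor, these sizes depend on the floor. The Mhc call in hswt over wt was lost with array weights, without normalization and when hswt and wt were fitted alone, and that in hsotd over hsOTX2 was lost without normalization. The regulatory light chain of muscle myosin, Mlc2, lay between 14921 and 19847 in all 16 arrays and did not pass in any of the 4 comparisons. Its log2 fold change was -0.00 in hsotd over hswt (SE 0.08, adjusted p = 1). That value depends on the scaling: with median scaling Mlc2 was lower in hsotd over hswt, at -0.50 (SE 0.17, limma adjusted p = 0.0334).

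Mf, which encodes myofilin, another thick filament protein, had an order of groups of its own. It read 4190, 4323, 4282 and 4073 in hsotd, and 6294, 6270, 6234 and 5787 in hsOTX2. The hswt arrays read 3314, 3214 and 3655, and the wt arrays 6195, 7417, 7080, 7665 and 7301. The hswt arrays were the lowest, the hsotd arrays lay just above them, and the wt arrays were the highest apart from 1 array within the hsOTX2 range. Mf fell in hswt over wt by 1.07 on the log2 scale (SE 0.07, adjusted p = 1.34e-08). It was higher in both lines than in hswt, by 0.31 in hsotd (SE 0.07, adjusted p = 0.00491) and by 0.86 in hsOTX2 (SE 0.07, adjusted p = 2.09e-07), and no other member rose in either line at its brightest probe set. Against wt the sign turned, at -0.75 in hsotd and -0.21 in hsOTX2, both past the threshold. Between the lines it was -0.54 (SE 0.07, adjusted p = 1.17e-05). The dimmer Mf probe set (CG6803_at) gave -1.22 in hswt over wt, 0.18 in hsotd over hswt (adjusted p = 0.435) and 0.91 in hsOTX2 over hswt.

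**Figure D2:**
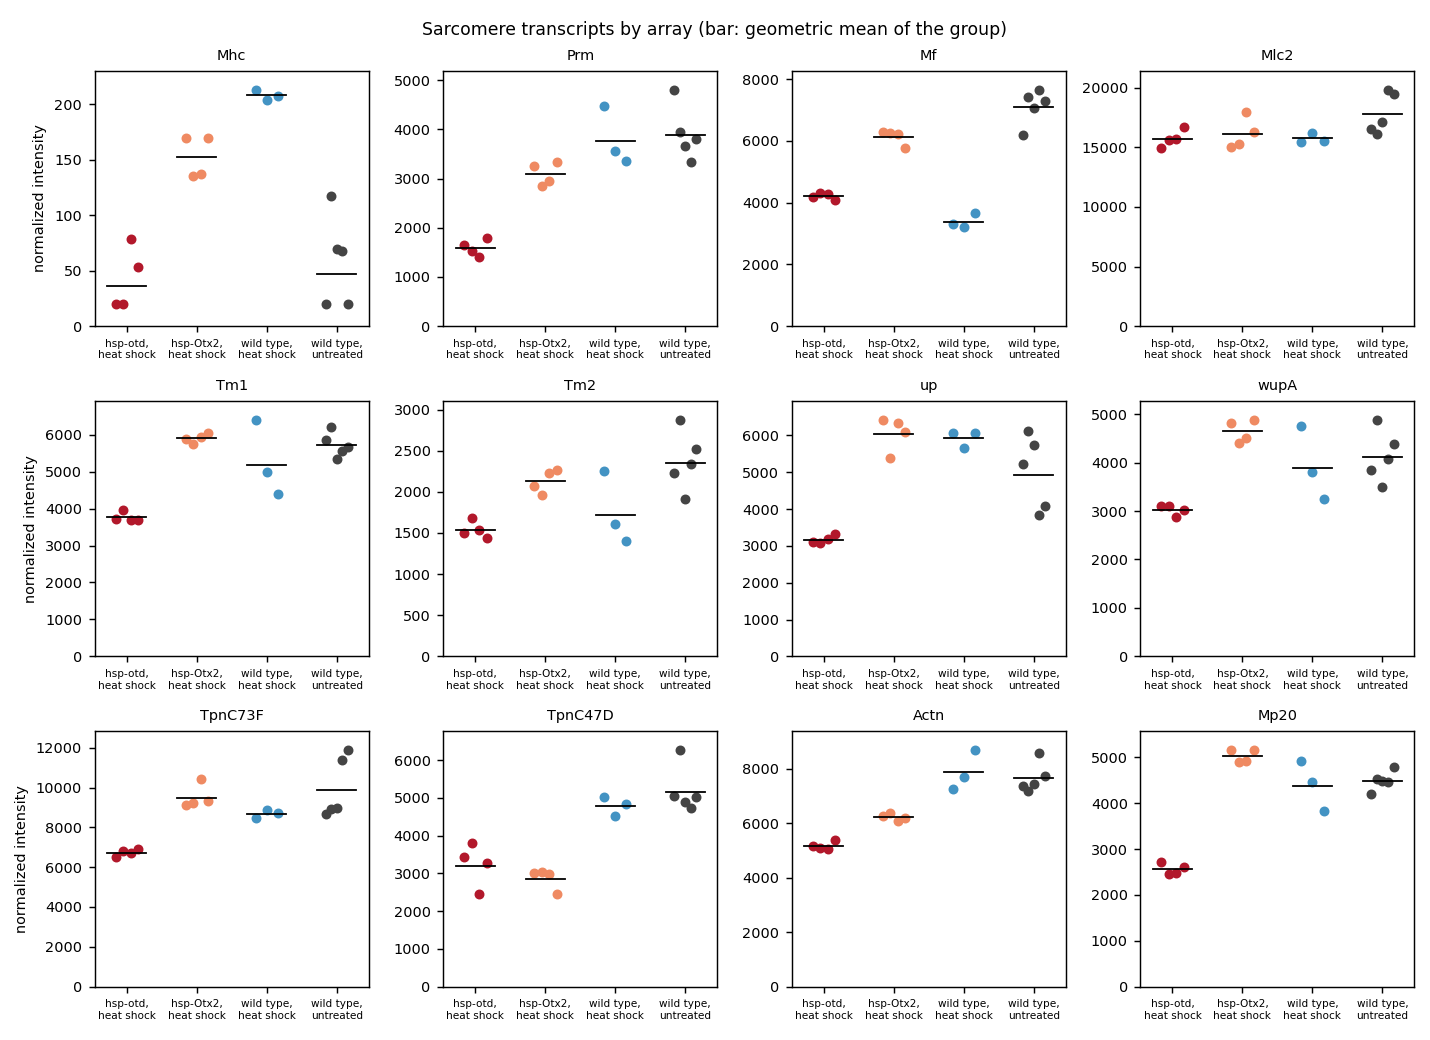
Normalized intensity (vertical axes, linear from 0) of 12 members in each of the 16 arrays, with the hsotd, hsOTX2, hswt and wt groups from left to right in each panel. Points are arrays and bars are geometric means of the group. For Prm, up and Mp20 all 4 hsotd points lie below every other point, TpnC47D is low in both lines, Mf is lowest in hswt, and Mlc2 shows no separation of the groups.

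Of the brightest probe sets of the 4 sarcomeric actin genes, 1 fell in hsotd. Act57B, the larval muscle actin gene, and Act87E, another muscle actin gene, did not pass in any comparison of the lines. Act57B had fold changes of 0.10 in hsotd over hswt (adjusted p = 0.311), 0.04 in hsOTX2 over hswt (adjusted p = 0.694) and 0.06 in hsotd over hsOTX2 (adjusted p = 0.586). Act87E fell in hswt over wt by 0.27 on the log2 scale (SE 0.09, adjusted p = 0.0348), a call that was lost under 12 of 18 alternatives. These included the replicate block, array weights, no variance trend, hswt and wt fitted alone, each of the 3 hswt arrays left out in turn, and wt replicate 4 or 5 left out. The probe sets of Act57B, Act79B and Act88F are of a kind named for probes shared within a gene family. That of the cytoplasmic actin gene Act5C is of the same kind. Its mean level was 17061 in hsotd, 18244 in hsOTX2, 15717 in hswt and 16412 in wt. Signal may thus be shared between near-identical actin genes, cytoplasmic ones among them, and each value is uncertain.

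Act88F, known for the indirect flight muscles of the adult, read 8742, 8277, 8239 and 7730 in hsotd, and 10884, 11404, 8650 and 10130 in hsOTX2. It read 10812, 10029 and 11597 in hswt, and 10042, 10137, 10675, 8092 and 7800 in wt. All 4 hsotd arrays lay below the hswt arrays but overlapped with hsOTX2 and wt. Its log2 fold change was -0.39 in hsotd over hswt (SE 0.11, adjusted p = 0.0181) and -0.31 in hsotd over hsOTX2 (SE 0.11, adjusted p = 0.0364). The Act88F call against hswt was lost without hswt replicate 3 and without a variance trend. The call between the lines was lost without a variance trend, without the filter on dim probe sets, and on leaving out hsotd replicate 2, 3 or 4 or hsOTX2 replicate 1, 2 or 4.

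Act79B, an adult muscle actin gene, read 8812, 5941, 5771 and 5260 in hsotd, and 11062, 9859, 5277 and 6743 in hsOTX2. It read 11510, 8036 and 10281 in hswt, and 8854, 11659, 8764, 5375 and 5027 in wt. The groups overlapped, and the split ran within them. In the 9 arrays with a mean deposited intensity of 460.2 to 785.9 Act79B was 8036 to 11659, and in the 7 arrays with a mean of 891.6 to 1016.4 it was 5027 to 6743. The hsotd group had 1 array in the dimmer class and 3 in the brighter, hsOTX2 had 2 and 2, hswt had 3 and 0, and wt had 3 and 2. For Act88F the classes overlapped, at 8742 to 11597 in the dimmer arrays and 7730 to 10130 in the brighter ones. A fit with the brightness class as a term, chosen after seeing the data, ended the Act88F call in hsotd over hswt but not that in hsotd over hsOTX2. Beyond that fit, the part of array brightness in these values was not tested.

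The troponin T transcript up divided by brightness within wt, at 5225, 6109 and 5751 in the dimmer arrays and 3837 and 4085 in the brighter ones. Within hsotd it did not, at 3113 in the dimmer array and 3088, 3178 and 3314 in the brighter ones. Within the dimmer arrays the median fold change of the members was -0.38 in hsotd over hswt (1 against 3 arrays), 0.01 in hsOTX2 over hswt (2 against 3) and -0.02 in hswt over wt (3 against 3). In hsotd over hsOTX2 it was -0.29 in the dimmer arrays (1 against 2) and -0.23 in the brighter ones (3 against 2). These medians have no test, and an arm of 1 array has no spread. With the brightness class as a term in the fit, 11 members were lower in hsotd over hswt and 12 in hsotd over hsOTX2, and the term ended the calls of Act88F and wupA in hsotd over hswt and of Act87E, Tm2 and Zasp52 in hswt over wt.

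**Figure D3:**
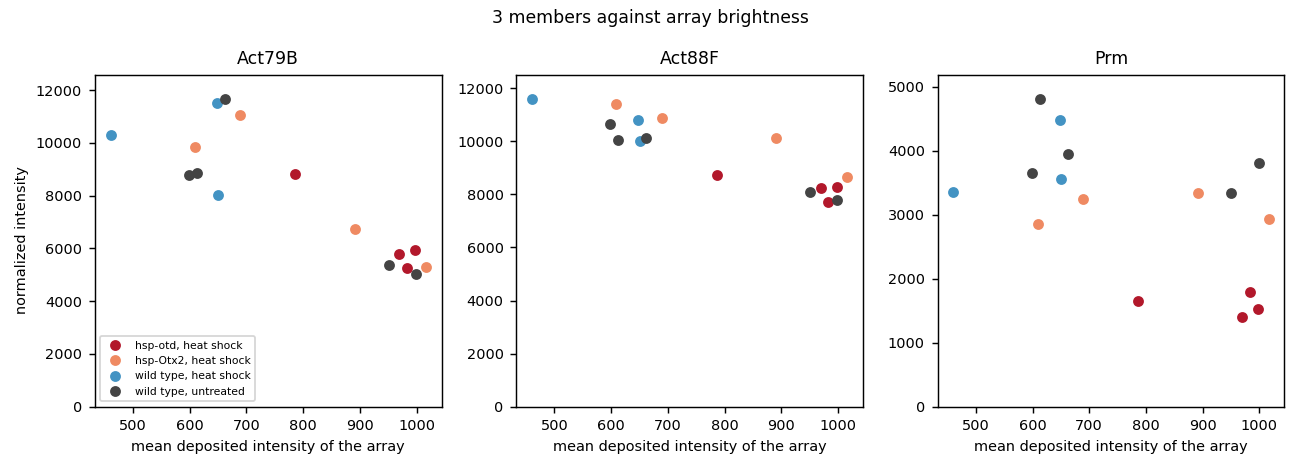
Normalized intensity (vertical axes, linear from 0) of Act79B, Act88F and Prm against the mean deposited intensity of each array (horizontal axes), coloured by group. Act79B drops to 5027 to 6743 in the 7 arrays with a mean of 891.6 or more, whatever their group, while the 4 hsotd arrays are lowest for Prm at either brightness.

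Among the regulators of the thin filament, all 4 genes of tropomyosin, troponin T and troponin I were lower in hsotd than in hsOTX2, and 3 of the 4 were lower in hsotd than in hswt. Their fold changes in hsOTX2 over hswt ran from 0.03 to 0.31 and did not pass. The gene up, which encodes troponin T, the subunit that ties the troponin complex to tropomyosin, read 3113, 3088, 3178 and 3314 in hsotd. It read 6426, 5375, 6335 and 6084 in hsOTX2, then 6059, 5662 and 6078 in hswt, and 5225, 6109, 5751, 3837 and 4085 in wt. The hsotd arrays lay below all others, with hsOTX2 and hswt overlapping. On the log2 scale the difference was -0.90 in hsotd over hswt (SE 0.13, adjusted p = 0.000106), -0.93 in hsotd over hsOTX2 (SE 0.12, adjusted p = 1.67e-05) and 0.03 in hsOTX2 over hswt (SE 0.13, adjusted p = 0.9). The other up probe sets gave -0.90 and -0.90 against hswt, and -0.87 and -0.98 between the lines.

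Tm1, a tropomyosin gene, read 3727, 3958, 3689 and 3701 in hsotd, and 5894, 5751, 5925 and 6041 in hsOTX2. It read 6405, 4983 and 4386 in hswt, and 5852, 6213, 5336, 5569 and 5673 in wt. All 4 hsotd arrays lay below all others. The log2 ratio was -0.46 in hsotd over hswt (SE 0.10, adjusted p = 0.00199) and -0.65 in hsotd over hsOTX2 (SE 0.09, adjusted p = 2.7e-05), and hsOTX2 over hswt gave 0.18 (SE 0.10, adjusted p = 0.145). Tm1 also makes non-muscle tropomyosins, which the probe set was not shown to leave out.

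Tm2, the other tropomyosin gene, lies next to Tm1 in the genome. It read 1503, 1679, 1540 and 1436 in hsotd, and 2068, 1961, 2227 and 2263 in hsOTX2. It read 2253, 1614 and 1400 in hswt, and 2230, 2876, 1908, 2332 and 2523 in wt. The hsotd arrays lay below hsOTX2 and wt but within the hswt range, because hswt replicate 1 was high and the other hswt arrays were not. The fold change was -0.47 in hsotd over hsOTX2 (SE 0.13, adjusted p = 0.0133), -0.16 in hsotd over hswt (SE 0.14, adjusted p = 0.423) and -0.45 in hswt over wt (SE 0.14, adjusted p = 0.0268). The Tm2 call in hswt over wt was lost under the replicate block, without a variance trend, when hswt and wt were fitted alone, without hswt replicate 2 or 3 and without wt replicate 2 or 5.

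The gene wupA encodes troponin I, the inhibitory subunit. It read 3095, 3109, 2882 and 3018 in hsotd, and 4821, 4408, 4504 and 4886 in hsOTX2. It read 4756, 3816 and 3245 in hswt, and 3848, 4882, 3494, 4073 and 4392 in wt. All 4 hsotd arrays lay below all others, and the spread was widest in hswt. Its log2 fold change was -0.62 in hsotd over hsOTX2 (SE 0.11, adjusted p = 0.000301) and -0.36 in hsotd over hswt (SE 0.12, adjusted p = 0.028). The call against hswt was lost without a variance trend, without hsotd replicate 3 or 4 and without hswt replicate 1 or 2. Of its other probe sets, WUPA-CDS-1_at and WUPA-CDS-2_at were lower in hsotd over hswt, at -0.40 and -0.33, and WUPA-CDS-3_at did not pass at -0.29 (adjusted p = 0.061). In hsOTX2 over hswt, WUPA-CDS-2_at and WUPA-CDS-3_at were higher, at 0.30 and 0.39, while the brightest one (WUPA_at) did not pass at 0.26 (adjusted p = 0.0959). All 4 probe sets were lower in hsotd than in hsOTX2, by 0.62 to 0.69 on the log2 scale.

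The 5 troponin C genes, which encode the calcium sensor of the thin filament, did not move as a set. The array levels of TpnC47D were 3422, 3804, 2451 and 3271 in hsotd, and 3013, 3031, 2992 and 2450 in hsOTX2. Its levels were 5027, 4520 and 4846 in hswt, and 5046, 6270, 4882, 4737 and 5036 in wt. Both lines lay below both wild-type groups with no overlap. It fell in hsotd over hswt by 0.58 on the log2 scale (SE 0.13, adjusted p = 0.00335) and in hsOTX2 over hswt by 0.74 (SE 0.13, adjusted p = 0.000291). The difference between the lines was 0.16 (SE 0.12, adjusted p = 0.38). Both comparisons with hswt share its arrays, and against wt the fold changes were -0.69 in hsotd and -0.85 in hsOTX2.

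TpnC73F was lower in hsotd than in each of the other groups. It read 6500, 6817, 6695 and 6907 in hsotd, and 9103, 9240, 10412 and 9304 in hsOTX2, against 8447, 8854 and 8709 in hswt and 8681, 8934, 8986, 11367 and 11892 in wt. All hsotd arrays lay below the rest. On the log2 scale the difference was -0.37 in hsotd over hswt (SE 0.10, adjusted p = 0.0125), 0.13 in hsOTX2 over hswt (SE 0.10, adjusted p = 0.329) and -0.50 between the lines (SE 0.09, adjusted p = 0.000559), and hsotd over wt gave -0.55 (adjusted p = 0.000155). TpnC41C lay at the floor in all 8 arrays of both lines, and in wt it was above it in 4 of 5 arrays, at 44.7, 68.0, 62.6 and 25.1. TpnC4, the flight muscle isoform gene, was above the floor in 1 hsotd array and 3 wt arrays, at most 34.8. TpnC25D ran from 113 to 312 in hsotd, 194 to 374 in hsOTX2, 48.2 to 262 in hswt and 20.0 to 389 in wt. These last 3 genes passed in none of the 4 comparisons.

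Of the Z disc members, Actn and Zasp52 fell in both lines relative to hswt. Actn encodes alpha-actinin, which crosslinks actin filaments at the Z disc, and its probe set is of a kind named for probes shared between transcripts. It read 5154, 5099, 5059 and 5375 in hsotd, and 6246, 6369, 6071 and 6178 in hsOTX2. It read 7249, 7703 and 8681 in hswt, and 7359, 7179, 7432, 8565 and 7730 in wt. The groups formed steps with no overlap, hsotd lowest, hsOTX2 next, and hswt and wt together at the top. The log2 ratio was -0.60 in hsotd over hswt (SE 0.07, adjusted p = 1.75e-05), -0.34 in hsOTX2 over hswt (SE 0.07, adjusted p = 0.00153) and -0.27 in hsotd over hsOTX2 (SE 0.07, adjusted p = 0.00571).

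Zasp52 encodes a PDZ and LIM domain protein that binds alpha-actinin at the Z disc. It read 1194, 1351, 1312 and 1175 in hsotd, and 1394, 1512, 1434 and 1140 in hsOTX2. It read 2072, 2309 and 2677 in hswt, and 1830, 1900, 2204, 1494 and 1412 in wt. The lines overlapped with each other, hswt lay above both, and wt ran from the level of the lines into that of hswt. The fold change was -0.90 in hsotd over hswt (SE 0.14, adjusted p = 0.000243), -0.78 in hsOTX2 over hswt (SE 0.14, adjusted p = 0.000441) and -0.12 between the lines (SE 0.13, adjusted p = 0.587). In hswt over wt it rose by 0.42 on the log2 scale (SE 0.14, adjusted p = 0.0348), a call that was lost under 13 of 18 alternatives, among them the replicate block, array weights, hswt and wt fitted alone, hswt replicate 2 or 3 left out, and wt replicate 4 or 5 left out. With the mean of its probe sets, both Zasp52 calls against hswt were lost as well. The other Zasp52 probe sets (CG12968_at and CG8242_at) were dimmer and passed in none of these comparisons, with -0.65 and 0.53 in hsotd over hswt.

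Mlp84B encodes a muscle LIM protein found at the Z disc. It read 1372, 1075, 1282 and 1532 in hsotd, and 1897, 1351, 1754 and 1983 in hsOTX2. It read 1967, 1469 and 879 in hswt, and 2505, 2899, 2765, 2569 and 2940 in wt. The 3 heat-shocked groups overlapped and all lay below wt. The fold change in hswt over wt was -1.0 (SE 0.19, adjusted p = 0.00133), and its MLP84B_at probe set gave -0.67 (SE 0.14, adjusted p = 0.00225). Neither line differed from hswt past the threshold. Between the lines MLP84B_at passed at -0.51 (adjusted p = 0.00836) and the brightest probe set did not, at -0.41 (adjusted p = 0.127). Mlp60A, the smaller muscle LIM protein gene, lay at the floor in all 5 wt arrays and at most at 158 elsewhere, and did not pass. Zasp67 lay at the floor in all 16 arrays.

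The probe sets of Zasp66, another Z disc PDZ protein gene, differed among themselves. The brightest (CG6416-CDS-1_at) ran from 519 to 813 in hsotd, 513 to 870 in hsOTX2, 586 to 864 in hswt and 493 to 779 in wt, and passed nowhere. The dimmer CG6416-CDS-2_at was higher in both lines than in hswt, at 1.33 in hsotd (SE 0.41, adjusted p = 0.0224) and 1.36 in hsOTX2 (SE 0.41, adjusted p = 0.015). CG6416_at read 306, 223, 260 and 281 in hsotd, and 592, 299, 564 and 367 in hsOTX2, against 66.0, 20.0 and 20.0 in hswt and 20.0, 107, 131, 252 and 328 in wt. The hswt arrays were the low ones. For CG6416_at the fold change was 3.16 in hsotd over hswt (SE 0.72, adjusted p = 0.00418), 3.88 in hsOTX2 over hswt (SE 0.72, adjusted p = 0.00053) and -1.99 in hswt over wt (SE 0.69, adjusted p = 0.0491). With 2 of 3 hswt arrays at the floor, these sizes depend on the floor.

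Among giant and M line proteins, bt encodes projectin, a titin-like kinase that links thick filaments to the Z disc. Its brightest probe set (BT_at) read 285, 511, 372 and 279 in hsotd, and 484, 555, 639 and 641 in hsOTX2. It read 787, 753 and 428 in hswt, and 769, 1170, 701, 863 and 851 in wt. Most hsotd arrays were the lowest, but the groups overlapped through hsotd replicate 2 and hswt replicate 3. Its log2 fold change was -0.85 in hsotd over hswt (SE 0.24, adjusted p = 0.0157) and -0.72 in hsotd over hsOTX2 (SE 0.23, adjusted p = 0.0236). The call against hswt was lost when hsotd and hswt were fitted alone, with the mean of its probe sets, and without hswt replicate 1 or 2, and that between the lines without hsotd replicate 1 or 4 or hsOTX2 replicate 3 or 4.

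The other bt probe set (CG10285_at) went against it. It read 465, 496, 513 and 475 in hsotd, and 639, 661, 701 and 656 in hsOTX2. It read 262, 160 and 165 in hswt, and 422, 355, 395, 476 and 469 in wt. Here hswt was the lowest group, with no overlap. On the log2 scale the difference was 1.35 in hsotd over hswt (SE 0.17, adjusted p = 3.68e-05), 1.80 in hsOTX2 over hswt (SE 0.17, adjusted p = 7.72e-07) and -1.14 in hswt over wt (SE 0.17, adjusted p = 0.000101). Both probe sets were lower in hsotd than in hsOTX2, CG10285_at by 0.45 on the log2 scale (SE 0.16, adjusted p = 0.0477). Of the 11 members with at least 2 tested probe sets, bt was the only 1 with calls in opposite directions in the same comparison. A direction for bt against hswt therefore depends on the probe set. CG10285_at was assigned to bt by name only, through an older CG number, and may report another transcript.

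**Figure D4:**
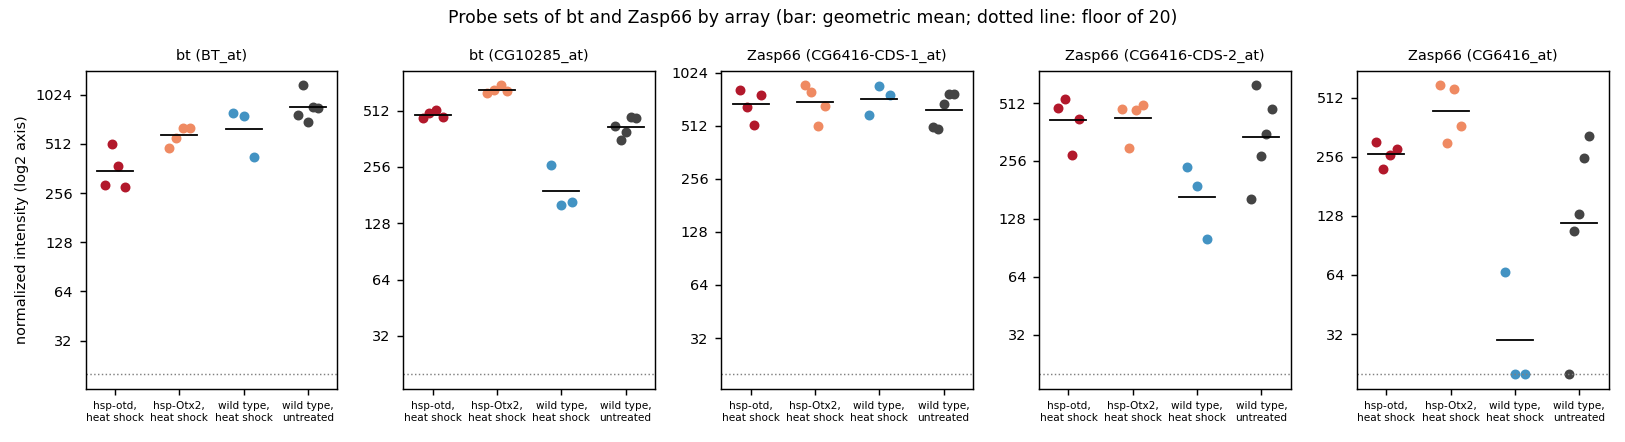
Normalized intensity (vertical axes, log2 scale, dotted line at the floor of 20) of 2 probe sets of bt and 3 of Zasp66 in each of the 16 arrays, with hsotd, hsOTX2, hswt and wt from left to right and bars at the geometric means. For bt, BT_at is lowest in hsotd while CG10285_at is lowest in hswt. For Zasp66, CG6416-CDS-1_at shows no separation and the other probe sets are lowest in hswt.

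Unc-89, current symbol Obsc, encodes an obscurin-like M line protein. At its brightest probe set (CG18020_at) it ran from 538 to 724 in hsotd, 585 to 667 in hsOTX2, 668 to 1043 in hswt and 436 to 903 in wt, and did not pass. Of its dimmer probe sets, CG18021_at lay at the floor in all 3 hswt arrays and read 144, 232, 484, 168 and 287 in wt, at least 11.9-fold lower in hswt (adjusted p = 0.001). The gene tmod encodes tropomodulin, which caps the slow-growing end of the thin filament. Its values varied within each group, from 182 to 530 in hsotd, 105 to 258 in hsOTX2, 96.2 to 868 in hswt and 122 to 713 in wt, and it did not pass. The shared probe set KET_at, which could report sls or Fs(2)Ket, gave -0.28 in hsotd over hswt (adjusted p = 0.0858) and -0.30 in hsOTX2 over hswt (adjusted p = 0.0521).

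Mp20, a muscle-specific calponin-like actin-binding protein gene, gave the smallest adjusted p between the lines. It read 2712, 2455, 2471 and 2609 in hsotd, and 5163, 4899, 4927 and 5154 in hsOTX2. It read 4917, 4454 and 3830 in hswt, and 4201, 4540, 4496, 4454 and 4782 in wt. The hsotd arrays lay below all others, and hswt overlapped with hsOTX2 and wt. The log2 ratio was -0.77 in hsotd over hswt (SE 0.08, adjusted p = 2.99e-06), -0.98 in hsotd over hsOTX2 (SE 0.07, adjusted p = 2.7e-08) and 0.20 in hsOTX2 over hswt (SE 0.08, adjusted p = 0.0517).

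Msp300 encodes a giant nesprin that anchors nuclei in muscle. It read 726, 914, 832 and 732 in hsotd, and 780, 883, 801 and 883 in hsOTX2. It read 1224, 1074 and 1070 in hswt, and 689, 755, 684, 907 and 668 in wt. The hswt arrays alone were high, and the lines overlapped with wt. The fold change was 0.61 in hswt over wt (SE 0.12, adjusted p = 0.00124), -0.49 in hsotd over hswt (SE 0.12, adjusted p = 0.00722) and -0.42 in hsOTX2 over hswt (SE 0.12, adjusted p = 0.0125). The call in hsOTX2 over hswt was lost with the mean of its probe sets and without hswt replicate 1. A dimmer Msp300 probe set (CG18252_at) lay at the floor in all 4 hsotd arrays and read 121, 54.0 and 62.8 in hswt, at least 3.72-fold lower in hsotd (adjusted p = 0.0128). Lasp, which encodes a LIM and SH3 domain actin-binding protein, read 118 to 242 in hsotd, 254 to 361 in hsOTX2, 123 to 385 in hswt and 20.0 to 214 in wt, and passed in none of the 4 comparisons. In hswt over wt it passed as higher under several alternatives but not all, among them a floor of 50 (1.39) and the replicate block (2.27). Lasp was also higher in hsOTX2 over wt, at 2.24 (limma adjusted p = 0.00416).

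Untreated wild type served as a further control, with the collection limits given above. In hsotd over wt 13 of 28 members passed, all of them lower, where 13.9% of all probe sets were lower and 15.7% higher, and the members' median was -0.41. In hsOTX2 over wt 7 were lower and 2 higher, against 21.4% and 18.5% of all probe sets, with a median of -0.06. Prm was at -1.29 in hsotd over wt and at -0.33 in hsOTX2 over wt, up at -0.63 and 0.30, and Mp20 at -0.81 and 0.16. The hsOTX2 values of up (adjusted p = 0.0502) and Mp20 (adjusted p = 0.0659) did not pass.

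Other lists of genes of muscle structure gave mixed counts, to be read against the shares of all tested probe sets, which in hsotd over hswt were 13.6% lower and 15.8% higher. Of 9 tested genes for further sarcomere and muscle cytoskeleton proteins, 6 were lower and 1 was higher in hsotd over hswt. In hsOTX2 over hswt 4 were lower and 1 higher, against 19.7% and 17.5% of all probe sets, and in hsotd over hsOTX2 4 were lower and 1 higher, against 13.8% and 15.7%. CAP, an adaptor of integrin and actin, was at -1.04 in hsotd over hswt (SE 0.09, adjusted p = 7.53e-07), the filamin gene cher at -0.41 and Chd64, a calponin-like gene, at -0.59. The gene that was higher in hsotd over hswt and in hsotd over hsOTX2 was Argk, which encodes arginine kinase. It read 11844 to 13879 in hsotd, 7623 to 8503 in hsOTX2, 9586 to 10586 in hswt and 8239 to 9406 in wt. The hsotd group was thus its highest. Its log2 fold change was 0.39 in hsotd over hswt (adjusted p = 0.000776) and 0.71 in hsotd over hsOTX2 (adjusted p = 4.4e-07). In hsOTX2 over hswt Argk was lower, at -0.32 (limma adjusted p = 0.00235). The higher gene there was Fhos, at 1.58 (limma adjusted p = 0.00448). Of 16 genes for muscle attachment, 4 passed in hsotd over hswt, all lower, while 8 of the 16 fold changes were positive and 8 negative. In hsotd over hsOTX2 4 of them were higher and 3 lower. The smallest adjusted p was that of Pax, which encodes the adhesion adaptor paxillin, at -1.17 (SE 0.11, adjusted p = 1.55e-06). The extracellular integrin ligand Tig followed at -0.73 and the talin gene rhea at -0.38. Of 7 calcium handling genes 1 passed in hsotd over hswt (14.3%, near the share of all probe sets that were lower). This was the calcium channel gene Ca-alpha1D, at -1.81 (adjusted p = 0.0405). Its mean level in hsotd was 52.5, near the floor of 20. In hsotd over hsOTX2 1 of the 7 was lower and 1 higher (14.3% each, near the shares of all probe sets). The higher one was RyR, at 0.71 (limma adjusted p = 6.34e-05). In hsOTX2 over hswt only RyR passed, as lower, at -0.47 (limma adjusted p = 0.00382).

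Genes that act before the sarcomere is built are given by the same counts, beside the shares of all probe sets above, and no test compared the lists. Of 18 mesoderm and muscle transcription factors, 5 were lower and 3 higher in hsotd over hswt, 6 lower and 1 higher in hsOTX2 over hswt, and 1 lower and 7 higher in hsotd over hsOTX2. Their summed level was 10024 to 10656 in hsotd, 6382 to 7098 in hsOTX2, 9744 to 11513 in hswt and 9617 to 10958 in wt, and hsOTX2 was the low group here. The midgut muscle factor bap was at 0.69 in hsotd over hsOTX2 (adjusted p = 3.49e-07). Of 14 myoblast fusion genes, 3 were lower (21.4%) and 2 higher (14.3%) in hsotd over hswt, 5 lower and 2 higher in hsOTX2 over hswt, and 2 lower and 4 higher in hsotd over hsOTX2. The fusion regulator lmd was at 2.74 in hsotd over hsOTX2 (adjusted p = 1.6e-05). Its mean level was 58.9 in hsOTX2, 393 in hsotd and 419 in hswt, so hsOTX2 was the low group. The fusion gene rost went the other way in hsotd over hsOTX2, at -2.59 (limma adjusted p = 0.00287). Of 7 non-muscle actin and myosin genes, 3 passed in hsotd over hswt, all higher, among them the cytoplasmic actin gene Act42A at 0.74 (adjusted p = 0.00702).

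**Figure D5:**
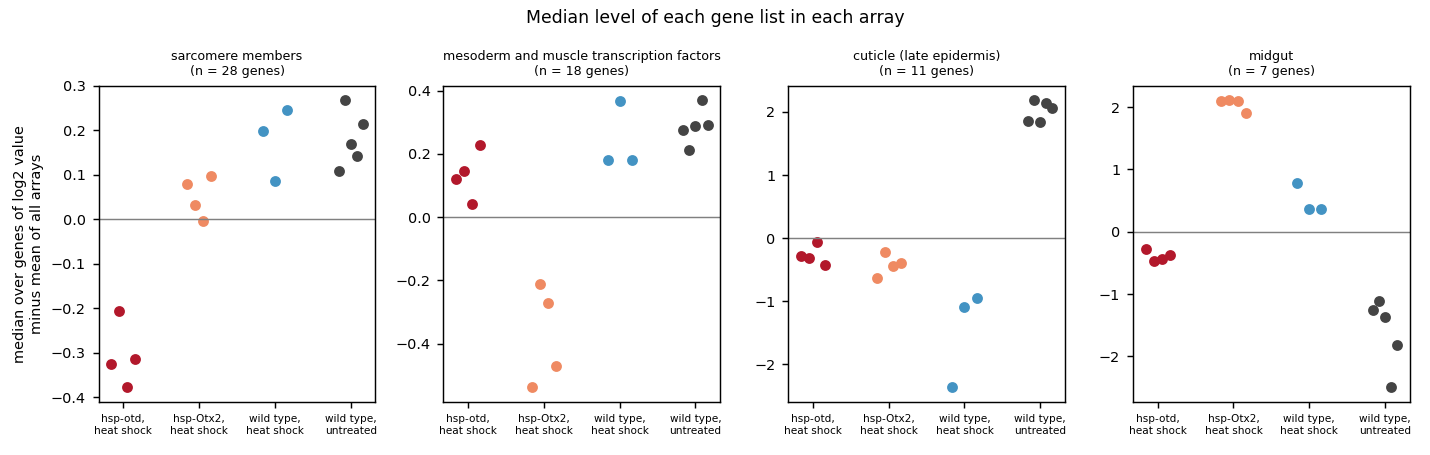
Median over the genes of a list of the log2 level minus its mean over all arrays (vertical axes), for the 28 sarcomere members, 18 mesoderm and muscle transcription factors, 11 cuticle genes and 7 midgut genes. Each point is an array, with hsotd, hsOTX2, hswt and wt from left to right. The sarcomere members are lowest in hsotd (-0.38 to -0.21) and the transcription factors in hsOTX2. The midgut list separates all 4 groups by wider steps. In the cuticle list wt is highest and hswt lowest, and the lines overlap, at -0.43 to -0.06 in hsotd and -0.64 to -0.23 in hsOTX2.

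Markers of other tissues are given beside these values, with the same shares of all probe sets as background (13.6% lower and 15.8% higher in hsotd over hswt). Of 11 tested cuticle genes of the late epidermis, 7 were higher and 2 lower in hsotd over hswt, and their summed level was 10021 to 11269 in hsotd, 7455 to 9112 in hsOTX2, 7268 to 10084 in hswt and 44377 to 46525 in wt. The cuticle genes Cpr62Bb, Ccp84Ac, TwdlV and TwdlW were at the floor in all hswt arrays, and Cpr72Ea was at it in all hsOTX2 and all wt arrays. Of 7 midgut genes, 4 passed in hsotd over hswt and 6 in hsotd over hsOTX2, all lower. Their summed level was 3611 to 3964 in hsotd, 26763 to 28885 in hsOTX2, 5697 to 7360 in hswt and 1502 to 2346 in wt, with Jon99Ciii and Jon65Aiv at the floor in all wt arrays. Of 8 neuroblast and progenitor genes, 2 passed in hsotd over hswt, both higher, with sums of 9727 to 10846 in hsotd, 5873 to 6606 in hsOTX2, 7097 to 7504 in hswt and 9136 to 10506 in wt. Of 7 neuronal genes 1 was higher in hsotd over hswt (14.3%, near the share of all probe sets), with sums of 2352 to 2854 in hsotd, 1739 to 2088 in hsOTX2, 1602 to 2705 in hswt and 1987 to 3792 in wt. The neuronal gene brp was at the floor in all hswt arrays. Of 6 haemocyte and fat body genes, 2 passed in hsotd over hswt, both lower, with sums of 13100 to 13269 in hsotd, 13761 to 14686 in hsOTX2, 13927 to 14597 in hswt and 13690 to 16886 in wt. The part that such shifts between tissues, or in embryo age, had in the levels of the sarcomere transcripts was not tested.

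The direction of these fold changes rests on the normalization, which sets all arrays to the same distribution. Without it, the median over all tested probe sets was 0.68 in hsotd over hswt, 0.29 in hsOTX2 over hswt, 0.26 in hsotd over hsOTX2 and -0.36 in hswt over wt. The members' medians were then 0.25, 0.34, -0.10 and -0.46 in those comparisons. Relative to the median of all probe sets, the members lay at -0.42 in hsotd over hswt without normalization, at -0.41 with it and at -0.45 with median scaling. All 14 members called in hsotd over hswt, all 5 in hsOTX2 over hswt, all 12 in hsotd over hsOTX2 and all 7 in hswt over wt stayed on the same side of that median under the 3 scalings. The calls were made with quantile normalization, so that scaling is no check on them. Median scaling and no normalization differ by a single factor per array, so relative to that median they nearly repeat each other. Median scaling ended the calls of Act88F, Tm1 and wupA in hsotd over hswt, of Actn and Msp300 in hsOTX2 over hswt, of Act88F and Actn in hsotd over hsOTX2, and of Act87E and Zasp52 in hswt over wt. The same scaling added calls of Mlc2 as lower in hsotd over hswt and of Tm1 as lower in hswt over wt. In hsOTX2 over hswt it added Tm1, Tm2, wupA, Mlp84B and Mp20 as higher. Without normalization every call in these 4 comparisons was lost except those of Mhc and Mf in hsotd over hswt, Mf in hsOTX2 over hswt, and Mf and Mlp84B in hswt over wt. Over all tested probe sets, the share of calls that were higher in hsotd over hswt was 53.8%, against 64.5% with median scaling and 92.8% without normalization. In hsOTX2 over hswt these shares were 47.1%, 58.1% and 86.4%. Without normalization the share was 71.0% in hsotd over hsOTX2, against 53.3% with it, and 14.7% in hswt over wt, against 45.8% with it.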

How the data were processed

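Groups and replicate numbers came from the sample titles. As deposited, each probe set has 1 linear intensity per array. Values span -3962 to 34260, and between 18.3% and 24.6% of them are negative, depending on the array. For the authors' image reading, probe summary and array scaling, details are not given in the sources used here. Per the labels' protocols, preparations used 200 mg of embryos and 25 µg of RNA.

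Probe-set names were matched to a RefSeq table of gene symbols, without coordinates. A probe set named by an older CG number, as for bt, Zasp66 and Unc-89, may therefore report another transcript. Of 14070 probe sets 13054 led to 1 symbol, 493 to several and 491 to none, and 32 controls were left out. Values were quantile normalized, set to 20 where lower and put on a log2 scale. A probe set was tested if 3 or more arrays exceeded that floor. limma 3.58.1 in R 4.3.3 (lmFit, eBayes with a trend) was fitted with 1 coefficient per group, and p-values were adjusted by Benjamini-Hochberg over all 12301 tested probe sets in each of the 4 comparisons. The fit had 12 residual degrees of freedom. The floor, the fit and the calls were tested on simulated log2 values. Normalization, the matching of names and the filter on dim probe sets were not part of that test. Precision is limited by how many arrays each group has.

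The members and the other gene lists were chosen with earlier results of these data known. Values in every array are given for Mhc, for up to 6 called members per comparison with the smallest adjusted p, and for members singled out after their values were seen (TpnC73F, Act79B, Act88F). Every member whose probe sets differ in call or direction is named, and at most 3 called genes per comparison from any other list. Alternatives were other scalings, floors and filters, the mean of a gene's probe sets, other fits, a replicate block, array weights, untreated wild type as the control, each array left out, and the brightness class.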

Additional observations from a re-analysis of the deposited data

Results flagged for a closer look

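Single arrays stood apart from the rest of their group for 7 of the 80 combinations of member and group examined, by the ratio of the gap to the range. The hswt group was not examined. Chance alone marks about 1 in 20 such groups, a rate that does not hold where values are set to the floor, as for TpnC4 and TpnC25D. Mf read 5787 in hsOTX2 replicate 4, against 6234 to 6294 in the other hsOTX2 arrays. Tm1 read 3958 in hsotd replicate 2, against 3689 to 3727 in the others. TpnC73F read 10412 in hsOTX2 replicate 3, against 9103 to 9304. TpnC47D was apart in hsOTX2 replicate 4, at 2450 against 2992 to 3031, and in wt replicate 2, at 6270 against 4737 to 5046. TpnC4 read 21.6 in hsotd replicate 4 and lay at the floor of 20 in the others. TpnC25D lay at the floor of 20 in wt replicate 3, against 204 to 389 in the others.

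The response of 12 members differed between the lines by the test of the difference itself, hsotd over hsOTX2, with limma. All 12 were lower, 42.9% of the 28 tested members, where 13.8% of all tested probe sets were lower and 15.7% higher. These log2 differences were -2.08 for Mhc, -0.96 for Prm, -0.54 for Mf, -0.31 for Act88F, -0.65 for Tm1, -0.47 for Tm2, -0.93 for up, -0.62 for wupA, -0.50 for TpnC73F, -0.27 for Actn, -0.72 for bt and -0.98 for Mp20. Adjusted p-values ran from 2.7e-08 for Mp20 to 0.0364 for Act88F.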

How the results depend on the processing

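Counts of lower members in hsotd over hswt and hsotd over hsOTX2 stayed within 1.5 times the reported ones under every alternative except no normalization. Without normalization, hsotd over hswt had 2 members higher, 1 lower and a median of 0.25. hsOTX2 over hswt then had 0 lower and a median of 0.34, hsotd over hsOTX2 had 0 lower and a median of -0.10, and hswt over wt had 0 higher, 2 lower and a median of -0.46. The sign also turned there for Act88F (0.22), Tm1 (0.46), wupA (0.56), TpnC73F (0.39), TpnC47D (0.34), Actn (0.22), Zasp52 (0.024), Mp20 (0.16) and Msp300 (0.35) in hsotd over hswt, for Actn (0.14) and Msp300 (0.17) in hsOTX2 over hswt, for Act88F (0.012) and Actn (0.08) in hsotd over hsOTX2, and for Zasp52 (-0.084) in hswt over wt. Unscaled arrays differ in overall brightness, which enters these values by construction.

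With the mean of a gene's probe sets, hsotd over hswt had 2 members higher, hsOTX2 over hswt had 5 higher and a median of 0.037, and the median of hsotd over hsOTX2 was -0.38. The sign turned for Zasp66 (1.46) and bt (0.25) in hsotd over hswt, Zasp66 (1.72) and bt (0.83) in hsOTX2 over hswt, and Unc-89 (-1.14) in hswt over wt. With untreated wild type as the control, 0 were higher in hsotd, and 2 were higher and 7 lower in hsOTX2. There the sign turned for Mf (-0.75) and Msp300 (0.12) in hsotd, and for Mhc (1.71), Mf (-0.21), Mlp84B (-0.66) and Msp300 (0.18) in hsOTX2. In hsOTX2 over hswt, median scaling gave 6 higher and 2 lower, and a floor of 50, no filter on dim probe sets, and only the compared groups in the fit each gave 2 higher. In hswt over wt, a floor of 50 gave 5 higher, only the compared groups 1 higher and 2 lower, array weights 1 higher, and no variance trend and the brightness class 2 lower each. The cause of these changes was not tested.

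Leaving out each array in turn gave 11 to 13 lower and 1 to 1 higher members in hsotd over hswt (medians -0.46 to -0.36), and 10 to 11 lower and 0 to 0 higher in hsotd over hsOTX2 (medians -0.40 to -0.25). It gave 4 to 5 lower and 1 to 6 higher in hsOTX2 over hswt (medians -0.06 to 0.01), and 2 to 4 lower and 2 to 4 higher in hswt over wt (medians -0.06 to 0.01). The 6 came without hswt replicate 1. Same-numbered arrays did not deviate together (r from -0.07 to 0.12 over 21 pairs of such arrays from different groups), so the numbers are not taken to pair arrays. A replicate block gave 13 lower in hsotd over hswt, 5 in hsOTX2 over hswt, 12 in hsotd over hsOTX2 and 2 in hswt over wt. Of the called members, 2 of 7 in hswt over wt (Mf and Mlp84B) and none of 12 in hsotd over hsOTX2 kept their call under all 18 alternatives. Under 17 alternatives, untreated wild type as the control not among them, 2 of 14 in hsotd over hswt (Mhc and Mf) and 1 of 5 in hsOTX2 over hswt (Mf) did. With untreated wild type as the control these were lost too, Mhc in hsotd at -0.37 (limma adjusted p = 0.664) and Mf by the turned signs given above. Signal near the floor limits Mhc, Mlp60A, TpnC41C and TpnC4.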
